A study of Mus musculus with 24 samples.

Results

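The genes described here code for the proteins of the cytosolic ribosome. They were taken from the RefSeq annotation of mouse build GRCm38.p6 as protein-coding genes whose symbols are Rpl or Rps followed by a number, with Rplp0, Rplp1, Rplp2 and Rpsa added and the Rps6k kinases left out. This gave 91 genes of 21883 protein-coding genes. Of these, 77 were canonical ribosomal proteins, 46 of the large subunit and 31 of the small subunit. Another 8 were paralogs (Rpl3l, Rpl7l1, Rpl10l, Rpl22l1, Rpl36al, Rpl39l, Rps27l and Rps27rt). The remaining 6 met only the letters of the rule: Rps19bp1 codes for a protein that binds Rps19, and Rps23rg1, Rpl32l, Rpl37rt, Rpl31-ps12 and Rpl34-ps1 carry the symbols of retrogenes, pseudogenes or gene-like copies. The genes lie on 19 chromosomes, 14 of them on chromosome 7.

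A ribosome holds about equal amounts of each of its proteins, and dividing cells spend much of their transcription and translation on making them. Many of these mRNAs begin with a C followed by a run of pyrimidines, the 5′ terminal oligopyrimidine (TOP) tract, through which their translation depends on the kinase mTOR. The drug INK128 inhibits mTOR, and in mouse embryonic stem cells mTOR inhibition induces a state of slowed growth called pausing.

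The assay was ATAC-seq, which reads accessibility from where the transposase Tn5 cuts open chromatin. Mouse embryonic stem cells of the line E14, kept in serum with LIF, were wild type (WT) or one of 2 Smad2 knockouts, Smad2_KO1 and Smad2_KO2. Smad2 is a transcription factor that carries signals of Nodal and Activin. Each line was collected untreated (Ctrl) or after 12 hours with 200 nM INK128 (Paused), with 4 libraries in each of 6 groups. The labels do not say whether the libraries of a group came from separate cultures, so p-values measure the spread between these libraries, which may be technical. How the knockouts were made, and whether each is a single clone, is not given in the sources used here.

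The deposited values are normalized coverage per interval, in one table per treatment with 299780 (Ctrl) and 272268 (Paused) intervals. Reads recovered from the values numbered from 11456986 to 20007829 per library. In Paused, the Smad2_KO1 and Smad2_KO2 libraries numbered 2 agreed within sampling noise (chi-square per degree of freedom 1.001, where sampling noise allows 1.0055), so counts of calls are also given without both. The other same-numbered pairs of the knockouts had 1.0262 to 1.0737 in Paused, all lower than any pair with different numbers (1.0986 or more). In Ctrl the same-numbered pairs had 1.016 to 1.2698, which overlaps the pairs with different numbers. With same-numbered knockout libraries averaged to 1 sample, the counts below were 6 of 85 genes in Ctrl and 30 of 86 in Paused. The interval with the highest level at Smad2 averaged 362 in WT, 363 in Smad2_KO1 and 355 in Smad2_KO2 in Ctrl, and was not called; accessibility at the gene does not check the knockout. Defining genes of embryonic stem cells (Pou5f1, Nanog, Sox2, Zfp42, Esrrb and Klf4) all had intervals, and so did all 9 marker genes of endoderm, trophoblast and fibroblasts, so presence of an interval does not tell these cell types apart. Thy1 was lower in both knockouts in Ctrl (204, 159 and 158 in WT, Smad2_KO1 and Smad2_KO2) and in Paused (341, 256 and 260). In Paused, Col1a1 was also lower (201, 156 and 160) and Klf4 higher (68.9, 101 and 88.9). The other 12 markers were not called under either treatment, and the part of these markers in the results below was not tested.

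The starts of these genes are shown first, because the most accessible interval of most of these genes lay there and because the TOP tract is the feature through which mTOR reaches their mRNAs. RefSeq promoter windows (250 bases before to 50 after the listed start, build GRCm38.p6) were given for 70 of the 91 genes. The 6 sequences below hold the 100 bases before the listed start and the 20 bases from it on, 5′ to 3′ on the gene's strand. Capitals mark a TOP tract at the first transcribed base or a match to the ETS or YY1 motif. Rps6, Rps27 and Rpl15 show the tract, with an ETS match in Rps6 and a YY1 match in Rps27. Rplp2 and Rpl14 also carry the tract, and their accessibility was lower in the knockouts in Paused. Rpl39l, whose accessibility was higher in the knockouts, has neither a tract nor a match in this stretch. Other genes went the other way. Rpl32l and Rps27rt carry tracts of 10 and 6 bases and were higher in the knockouts, in Paused and Ctrl. Their weak intervals lay 1904 and 1957 bases outside the gene bodies. These intervals were tested only through the knockout libraries, where values were higher, so they add no support either way. Rps26 and Rps3 have no tract at the listed start and were lower in Paused. Whether the tract goes with the differences was not tested.
Rps6 (chr4:86857348-86857467, minus strand): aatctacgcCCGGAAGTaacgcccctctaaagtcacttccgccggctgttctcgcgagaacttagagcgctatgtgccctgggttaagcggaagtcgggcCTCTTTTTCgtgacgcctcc
Rps27 (chr3:90213629-90213748, minus strand): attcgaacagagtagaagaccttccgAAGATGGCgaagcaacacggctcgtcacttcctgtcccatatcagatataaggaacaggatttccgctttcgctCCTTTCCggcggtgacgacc
Rpl15 (chr14:18270967-18271086, minus strand): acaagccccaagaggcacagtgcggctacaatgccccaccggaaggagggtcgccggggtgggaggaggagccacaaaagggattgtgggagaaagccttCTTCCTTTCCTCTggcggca
Rplp2 (chr7:141447551-141447670, plus strand): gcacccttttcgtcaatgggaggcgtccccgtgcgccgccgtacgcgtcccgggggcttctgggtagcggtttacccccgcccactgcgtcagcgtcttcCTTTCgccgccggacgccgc
Rpl14 (chr9:120571417-120571536, plus strand): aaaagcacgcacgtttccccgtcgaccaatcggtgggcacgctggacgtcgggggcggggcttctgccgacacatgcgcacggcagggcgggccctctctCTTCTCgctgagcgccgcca
Rpl39l (chr16:10170128-10170247, plus strand): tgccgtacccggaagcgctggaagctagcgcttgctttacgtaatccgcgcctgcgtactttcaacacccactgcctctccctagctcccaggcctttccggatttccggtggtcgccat

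A TOP tract, searched as a C at the first transcribed base followed by at least 4 pyrimidines, stood at the first listed start of 14 of the 70 genes (20%), against 2.17% of 17491 protein-coding genes with a window and none of 69 mitochondrial ribosomal protein genes. The 14 were Rpl14, Rpl15, Rpl28, Rpl32l, Rpl35, Rpl38, Rplp2, Rps10, Rps15a, Rps18, Rps21, Rps27, Rps27rt and Rps6. The tract was the longest in Rpl15, at 13 bases, and 9 bases long in Rps6, the ribosomal protein phosphorylated by the S6 kinases. A listed start that is off by a base can hide a tract from this search, as the first base is then not always a C. On both strands of the window, the ETS motif CCGGAAGT was found in 17.1% of the genes against 5.29% of all, and YY1 (AAGATGGC) in 7.14% against 3.22%. SP1 (GGGCGG) was found in 57.1% against 46.3%, NRF1 (GCGCATGCG) in 2.86% against 2.41%, and a TATA box (TATAAA) in 11.4% against 13.3%. None of the spelled motifs holds another. The windows had a median GC content of 57%, near the 56.3% of all genes.

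Most ribosomal protein genes carried an interval of high accessibility. With gene bodies extended by 2 kb on each side, 85 of the 91 genes had an interval in Ctrl (174 intervals) and 86 in Paused (217 intervals). Rpl23a, Rps25, Rps28, Rps19bp1 and Rpl31-ps12 had none in either table and were not analysed further, and Rpl35a had intervals in Paused only. Each gene was represented by its interval with the highest mean over the 12 libraries of a treatment, called its strongest interval. All strongest intervals had the same width, so their levels can be compared between genes. Over the 85 genes, the strongest interval averaged from 6.69 to 641 in WT in Ctrl, with a median of 258, and 70 of them lay in the highest 10% of all intervals, as did 13766 of 18397 protein-coding genes. In Paused the levels ran from 7.67 to 772 with a median of 333, and 76 lay in the highest 10%, as did 13711 of 18229 protein-coding genes. Among genes with a known strand, the strongest interval lay within 500 bases of the 5′ end in 43 of 65 genes in Ctrl and 49 of 66 in Paused. Their centres lay a median of 53 and 50 bases before that end.

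Among the highest levels in Ctrl were Rpl41 (641 in WT) and Rpl37 (620), and in Paused the highest were Rps21 (772), Rpl18 (697) and Rpl37 (667). Rpl41 codes for the smallest protein of the ribosome, but its interval lies at the 3′ end of the gene beside Zc3h10. In Ctrl Rpl41 and Rpl37 differed by less than the SD of Rpl37 (77.5), and in Paused Rps21 (SD 70.2) and Rpl18 (SD 86.1) were about as far apart as their SDs. Among the lowest levels in Ctrl were Rps27rt (6.69) and Rpl35 (12.5), and in Paused the lowest were Rps27rt (7.67), Rpl32l (10.4) and Rpl38 (24.6). Not every interval can be assigned to the ribosomal protein gene alone, since 30 of the 85 strongest intervals in Ctrl and 32 of the 86 in Paused were also within 2 kb of another protein-coding gene. The strongest interval of Rpl3l, a muscle paralog of Rpl3, lay at its 3′ end beside Msrb1, and that of Rpl36al was shared with Mgat2. Rps6 serves as a case at the start of the gene alone. Its interval at chr4:86857322-86857522 in Ctrl is centred 55 bases before the 5′ end, and its WT libraries read 336, 293, 219 and 308. The Smad2_KO1 libraries read 327, 229, 338 and 304 and the Smad2_KO2 libraries 316, 309, 312 and 310, which overlap WT, with differences of 0.05 and 0.13 on the log2 scale.

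Smad2 knockout changed few of these intervals in untreated cells. Each knockout was compared with WT in 1 limma fit over all 12 libraries and all tested intervals of the treatment, on log2(value + 1), and an interval was called when both knockouts passed an adjusted p of 0.05 in the same direction. In Ctrl, 4 of the 85 strongest intervals were called, 2 higher (Rpl39l and Rps27rt) and 2 lower (Rpl3 and Rpl19). Those are 2.35% in each direction, against 1.53% higher and 3.11% lower over the strongest intervals of all protein-coding genes. The median difference of the knockouts from WT was -0.05 (log2), where the strongest intervals of all genes had -0.06. Over all 168 tested intervals of these genes, 7 were called (4.17%), 5 of them lower, against 7.15% of all intervals (3.2% lower and 3.95% higher). Where the libraries were rescaled with DESeq2's size factors, the 4 calls became 6, with 1 higher and 5 lower, and the 7 became 11, with 10 lower. Over all intervals in Ctrl, lower calls then rose from 9027 to 13390 and higher calls fell from 11132 to 7994. The count of 4 fell to 2 without any one of WT replicate 4, Smad2_KO1 replicates 1, 2 or 4, or Smad2_KO2 replicate 3, and to 2 without both knockout libraries numbered 2. The count of 7 fell to 4 without WT replicates 3 or 4 and to 3 without Smad2_KO1 replicates 1, 3 or 4. At the canonical genes alone, 2 of 73 were called, both lower.

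Rpl39l was higher in both knockouts under both treatments. It is a paralog of the X-linked Rpl39, whose protein lines the tunnel through which new peptides leave the ribosome, and it is known for its expression in the testis. The interval at its 5′ end (chr16:10170105-10170305 in Ctrl) read 142, 152, 125 and 126 in WT. It read 238, 179, 231 and 192 in Smad2_KO1 and 223, 206, 221 and 192 in Smad2_KO2. All knockout libraries were above all WT libraries. The difference was 0.61 ± 0.11 (SE) in Smad2_KO1 and 0.63 ± 0.11 in Smad2_KO2 on the log2 scale, with limma adjusted p of 1.02e-04 and 7.71e-05.

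In Paused the same site (chr16:10170095-10170295) read 145, 136, 138 and 166 in WT. It read 244, 238, 230 and 270 in Smad2_KO1 and 268, 259, 253 and 238 in Smad2_KO2, again with no overlap. The differences were 0.75 ± 0.10 and 0.80 ± 0.10 (limma adjusted p of 1.01e-06 and 2.90e-07). The authors' deposited table gives log2 fold changes of 0.58 in Ctrl and 0.75 in Paused for these intervals. A weak interval 1320 bases past the other end of Rpl39l was also called higher in Paused, with means of 6.11 in WT, 17.9 in Smad2_KO1 and 18.4 in Smad2_KO2. At that WT mean it passed the filter (at least 10 in at least 4 libraries) only with the knockout libraries, so it adds no separate support. Rpl39 itself was not called under either treatment: its WT mean was 208 in Ctrl and 241 in Paused, with differences from -0.04 to -0.10. Rpl10l, the other testis paralog, had differences of 0.24 and 0.24 in Ctrl and of 0.01 and -0.14 in Paused, and was not called.

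Rpl3, a protein near the peptidyl transferase centre, was lower in both knockouts. Its strongest interval (chr15:80076775-80076975) lies 806 bases outside the annotated gene body. In Ctrl it read 539, 640, 606 and 567 in WT, 447, 493, 454 and 461 in Smad2_KO1, and 393, 467, 367 and 513 in Smad2_KO2. No knockout library reached the lowest WT library. The differences were -0.34 ± 0.09 and -0.44 ± 0.09 (limma adjusted p of 0.00634 and 4.03e-04). In Paused the mean was 519 in WT, 435 in Smad2_KO1 and 430 in Smad2_KO2, with differences of -0.26 and -0.27, and the call was lost without WT replicate 2, Smad2_KO1 replicate 2 or Smad2_KO2 replicate 1, or both libraries numbered 2.

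The other 2 calls in Ctrl were less firm. The strongest interval of Rpl19, a large subunit protein, lies 886 bases past its end and read 139, 177, 211 and 215 in WT. The Smad2_KO1 libraries read 129, 135, 152 and 140, and the Smad2_KO2 libraries 112, 169, 121 and 162, so the groups overlapped. Its call held in 15 of 23 alternative analyses, and was lost without WT replicates 3 or 4, Smad2_KO1 replicates 1, 2 or 4, Smad2_KO2 replicates 1 or 3, or both libraries numbered 2. Rps27rt, a retrogene of Rps27, read 8.54, 6.27, 6.57 and 5.39 in WT, all under the filter of 10, and averaged 13.7 and 15.2 in the knockouts. It was thus tested only through the knockout libraries, where it was higher. Its call held in 7 of 23 and was lost with the size factors, TMM factors, edgeR and DESeq2, with each knockout fitted with WT alone, without both libraries numbered 2, and without each library but WT replicate 1 and Smad2_KO2 replicate 1. Among the other intervals of these genes, 3 of 84 tested were called in Ctrl (3.57%), all lower, against 7.15% of all intervals (3.2% lower and 3.95% higher). One lay 846 bases past the end of Rplp0 (chr5:115564575-115564775, also near Gcn1), one 781 bases past the end of Rpl27 and one at the 3′ end of Rpl5. The interval by Rplp0 read 99.3, 97.6, 111 and 107 in WT, 64.1, 72, 55.3 and 94.7 in Smad2_KO1, and 65.1, 58.2, 64.8 and 83.5 in Smad2_KO2. All knockout libraries were below all WT libraries there, with differences of -0.55 and -0.61, and the call was lost without Smad2_KO1 replicate 3. The Rpl27 call was lost without WT replicates 2 or 3 or Smad2_KO1 replicates 1, 3 or 4, and the Rpl5 call without WT replicates 2, 3 or 4 or Smad2_KO1 replicates 1, 3 or 4.

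**Figure D1:**
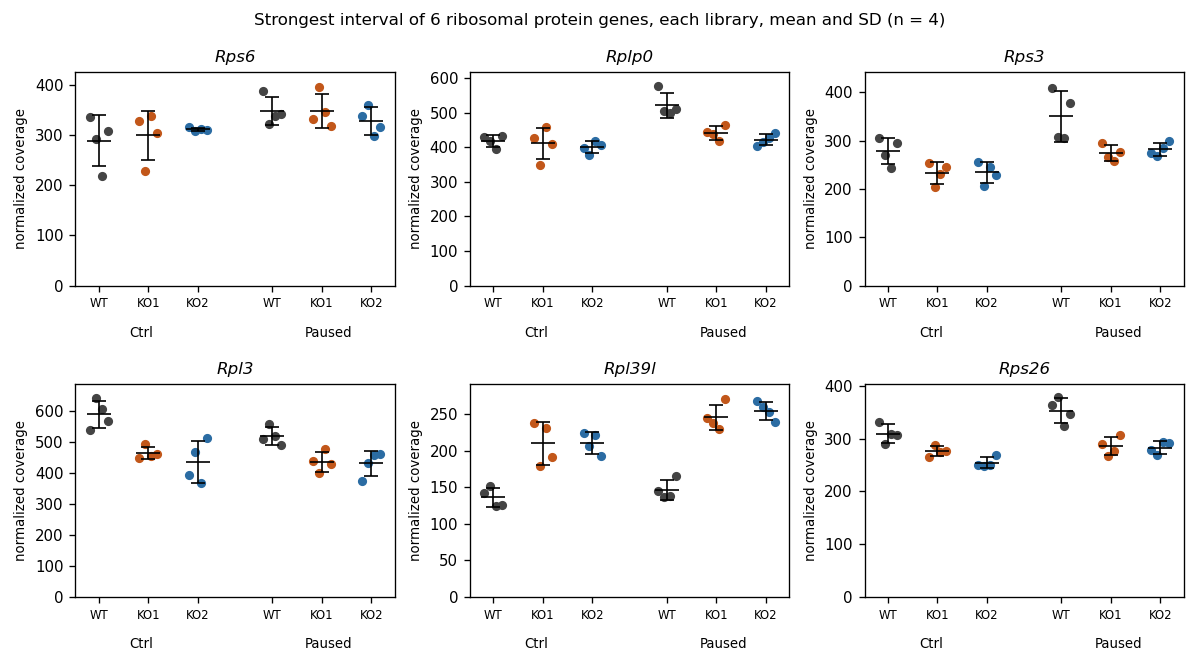
Normalized coverage (y axis, from 0) at the strongest interval of Rps6, Rplp0, Rps3, Rpl3, Rpl39l and Rps26 in each library (points), with mean and SD (bars, n = 4), for WT, Smad2_KO1 and Smad2_KO2 in Ctrl and Paused. At Rpl39l every knockout library lies above every WT library under both treatments, and at Rps6 the groups overlap.

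In paused cells 22 of the 86 strongest intervals were called, 19 lower and 3 higher in the knockouts. The lower calls were 22.1% of the genes, against 13.4% of the strongest intervals of all protein-coding genes and 18.1% of the intervals in the highest 10% of level, where most of these genes lie. The higher calls were 3.49%, against 2.37%. Of these, Rpl32l was tested only through the knockout libraries, where it was higher. The median difference from WT was -0.19, against -0.13 for the strongest intervals of all genes and -0.14 in the highest 10% of level. Over all 209 tested intervals of the genes, 33 were called (15.8%), 26 lower and 7 higher, against 13.9% of all intervals. Of all intervals 4.92% were called lower and 9.01% higher, and the lower share rises with level to the 18.1% above. Both knockouts lay below WT in mean at 76 of the 86 genes (88.4%), against 73.6% of all protein-coding genes. At 21 genes (24.4%) all 8 knockout libraries were below all 4 WT libraries, against 10.8% of all protein-coding genes. For these last comparisons no share in the highest 10% of level is given, where most of these genes lie and lower calls are commoner. These counts are descriptions of genes chosen by name, and the excess over all genes was not tested.

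The calls were spread over both subunits. Among canonical proteins, 10 of 45 large subunit genes were called, all lower, and 6 of 29 small subunit genes, 5 lower and 1 higher. The median differences were -0.22 and -0.19. The genes fell by small amounts: the 19 lower calls ranged from -0.23 to -0.36 on the log2 scale. Beside them, the mitochondrial ribosomal proteins had 10 of 78 called, 8 lower and 2 higher, with a median of -0.17. Of 22 other genes with TOP mRNAs, 4 were called, all lower, with a median of -0.16, and of 36 genes of ribosome biogenesis 4 were called, 3 lower and 1 higher, with a median of -0.18.

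**Figure D2:**
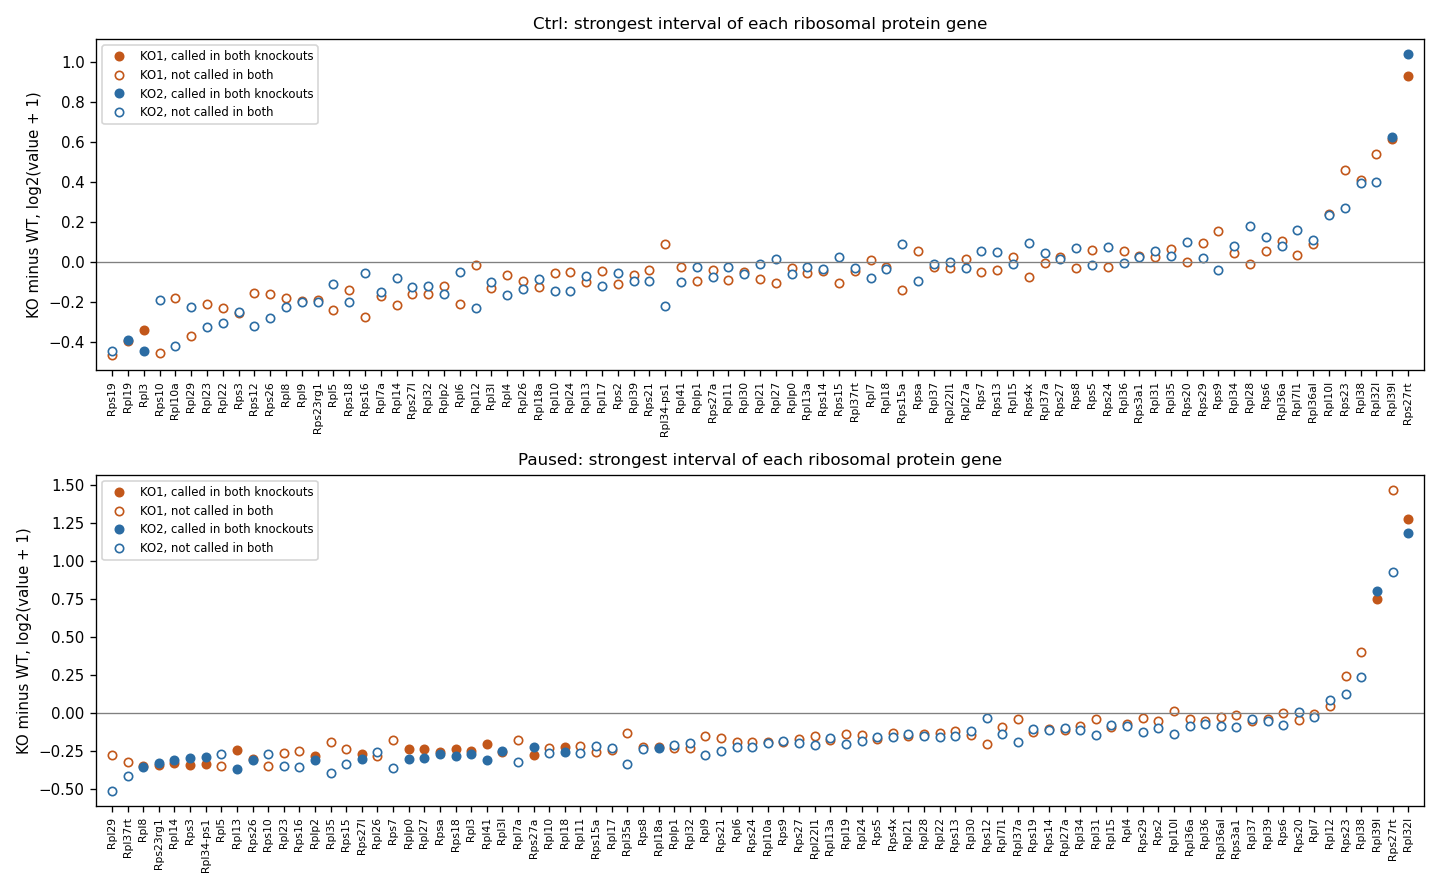
Difference of each knockout from WT in log2(value + 1) (y axis) at the strongest interval of each ribosomal protein gene (x axis, ordered by the mean of the knockouts), in Ctrl (above) and Paused (below). Filled points are called in both knockouts, in Ctrl Rpl3, Rpl19, Rpl39l and Rps27rt; genes not reported here are not drawn.

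**Figure D3:**
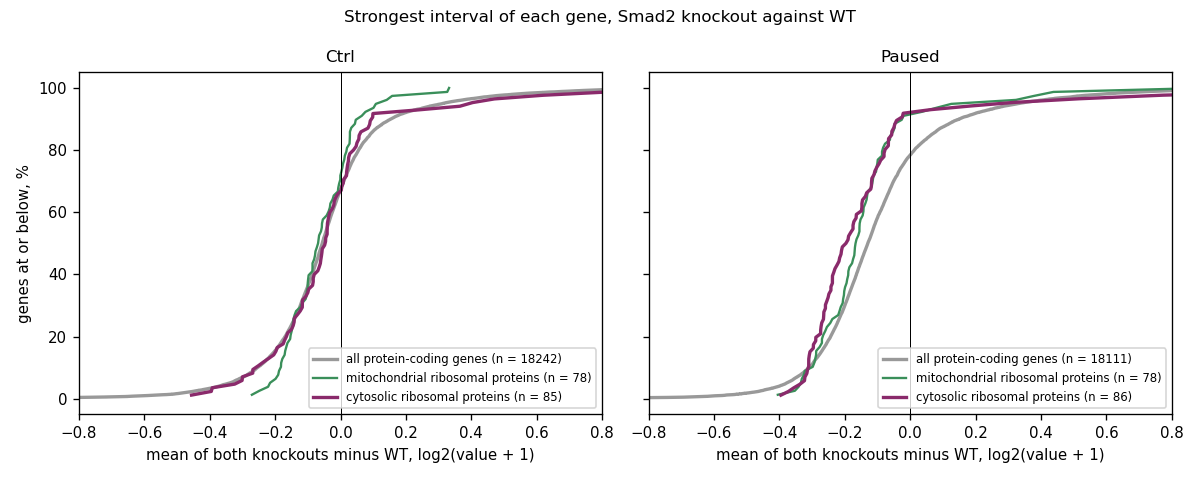
Share of genes (y axis, %) at or below each difference from WT (x axis, mean of both knockouts, log2), for cytosolic ribosomal protein genes, mitochondrial ribosomal protein genes and all protein-coding genes, in Ctrl and Paused. Genes beyond the ends of the x axis are not drawn, and in Paused the cytosolic genes have a median of -0.19 and all genes -0.13.

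Rpl8, a core protein of the large subunit, showed the largest fall by the smaller change of the 2 knockouts. Its interval (chr15:76908165-76908365), 1847 bases outside the gene body, read 302, 335, 366 and 339 in WT. It read 261, 234, 295 and 262 in Smad2_KO1 and 246, 244, 286 and 268 in Smad2_KO2. All knockout libraries were below all WT libraries, with differences of -0.35 ± 0.09 and -0.36 ± 0.09 (limma adjusted p of 0.00552 and 0.00453). In Ctrl the same site was not called, with differences of -0.18 and -0.23. Rpl14, another large subunit protein, read 378, 302, 298 and 359 in WT, 292, 241, 252 and 271 in Smad2_KO1 and 290, 261, 235 and 288 in Smad2_KO2, again without overlap. Its differences were -0.33 and -0.31, and the call was lost without WT replicates 1 or 4, Smad2_KO1 replicate 2, Smad2_KO2 replicates 2 or 3, or both libraries numbered 2.

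On the small subunit, Rps26, which sits near the mRNA exit channel, read 364, 378, 324 and 346 in WT in Paused at chr10:128626733-128626933, near its 5′ end. It read 289, 267, 277 and 307 in Smad2_KO1 and 279, 268, 294 and 291 in Smad2_KO2. The groups did not overlap, and the differences were -0.31 ± 0.08 and -0.32 ± 0.08 (limma adjusted p of 0.00953 and 0.00771). The Rps26 call was lost only without both libraries numbered 2. Rps3, a protein at the mRNA entry channel, read 410, 308, 305 and 377 in WT, with WT replicates 1 and 4 above the others. It read 296, 266, 258 and 277 in Smad2_KO1 and 275, 269, 285 and 299 in Smad2_KO2. The differences at Rps3 were -0.34 and -0.30, and the call was lost without WT replicates 1 or 4, Smad2_KO2 replicates 1 or 2, or both libraries numbered 2.

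The stalk of the large subunit, which recruits translation factors, is built of Rplp0, Rplp1 and Rplp2. At Rplp0, the interval before the 5′ end read 575, 503, 497 and 510 in WT in Paused, 443, 437, 419 and 465 in Smad2_KO1, and 403, 416, 425 and 442 in Smad2_KO2, without overlap. The differences were -0.24 and -0.30, and the call was lost without WT replicate 1, Smad2_KO1 replicates 2 or 3, or both libraries numbered 2. Rplp2 averaged 450 in WT, 368 in Smad2_KO1 and 361 in Smad2_KO2 (differences of -0.28 and -0.31), and lost its call without WT replicate 4, Smad2_KO1 replicates 2 or 3, or both libraries numbered 2. Rplp1 was not called, with differences of -0.23 and -0.22.

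Rpl5 and Rpl11, which with 5S rRNA bind the p53 regulator Mdm2, were not called. Rpl5 had differences of -0.35 and -0.27 and Rpl11 of -0.22 and -0.26, each passing in 1 knockout only. Rps27l, a p53-induced paralog of Rps27, was called at -0.27 and -0.31, and Rps27 was not, at -0.17 and -0.20. The Rps27l call held in 16 of 23 alternatives and was lost without WT replicates 1 or 4, Smad2_KO1 replicates 1, 2 or 3, Smad2_KO2 replicate 1, or both libraries numbered 2. Rps6 read 388, 322, 339 and 343 in WT, 333, 396, 346 and 319 in Smad2_KO1 and 339, 361, 297 and 316 in Smad2_KO2, which overlap, with differences of 0.00 and -0.08. Rps19, mutated in Diamond-Blackfan anaemia, was not called at its start, with differences of -0.13 and -0.11 (limma adjusted p of 0.235 and 0.344), and an interval 720 bases past its end was called lower. Rpl10 at the subunit interface had all knockout libraries below WT, with differences of -0.23 and -0.26, and passed in Smad2_KO2 only. The retrogene Rps23rg1 was called lower, with differences of -0.34 and -0.33 and means of 428 in WT, 337 in Smad2_KO1 and 340 in Smad2_KO2. Rpl34-ps1 was also called lower, from a mean of 161 in WT to 127 and 131. Its call held in 12 of 23 alternatives. It was lost with libraries scaled to the same total, with each knockout fitted with WT alone, and without WT replicates 3 or 4, Smad2_KO1 replicates 1, 2 or 3, Smad2_KO2 replicates 1, 2 or 3, or both libraries numbered 2.

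Among the higher calls in Paused was also Rpl32l. It had a weak interval near Map7 that read 7.56, 15, 15.1 and 3.97 in WT and averaged 24.4 and 23 in the knockouts, all above WT. At those WT values it passed the filter (at least 10 in at least 4 libraries) only with the knockout libraries, so it adds no separate support. Of the other intervals of these genes, 11 of 124 tested were called in Paused, 4 higher and 7 lower. That is 8.87%, against 13.9% of all intervals (9.01% higher and 4.92% lower). The largest falls were beside Rpl27a (-0.50 and -0.68), Rpl27 (-0.37 and -0.49) and Rpl7l1 (-0.37 and -0.42). All 3 lost their calls without Smad2_KO1 replicate 2 and without both libraries numbered 2. The Rpl27a call was also lost without WT replicate 2, the Rpl27 call without WT replicate 1 or Smad2_KO1 replicate 4, and the Rpl7l1 call without WT replicate 4.

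The count of 22 in Paused depended on single libraries. It fell to 8 without Smad2_KO1 replicate 2, 10 without WT replicate 4, 11 without WT replicate 1, Smad2_KO1 replicate 3 or Smad2_KO2 replicate 1, and 14 without Smad2_KO2 replicate 2, and it rose to 34 without WT replicate 3. Without both knockout libraries numbered 2 it was 5, 3 higher and 2 lower (Rpl8 and Rps23rg1). The median difference was then -0.188, against -0.193 with all libraries, and calls over all intervals of the table fell from 36293 to 18306. With scaling by DESeq2's size factors the count was 48, 45 lower and 3 higher, and edgeR on recovered reads also called 48. Lower calls over all intervals of the table rose too, from 12816 to 22546 with the size factors and 23509 with edgeR. Higher calls there fell from 23477 to 15655 and 14339. The 33 called over all intervals of these genes were 17 without WT replicate 1 and 20 without WT replicate 4 or Smad2_KO1 replicate 3. They were 21 without Smad2_KO1 replicate 1 or Smad2_KO2 replicate 1, 12 without Smad2_KO1 replicate 2, and 66 (62 lower) with the size factors. The scaling also moves the median of all intervals, from 0.12 with the authors' values to 0.02 with the size factors and 0.01 with DESeq2 on recovered reads. Relative to that median, the ribosomal protein genes were at -0.31 under each of these 3. Strong intervals in general lay below that median. With the authors' values the strongest intervals of all genes had -0.13, and the intervals in the highest 10% of level -0.14. Whether the knockouts differ from WT more in Paused than in Ctrl was not tested, because the tables were normalized separately.

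**Figure D4:**
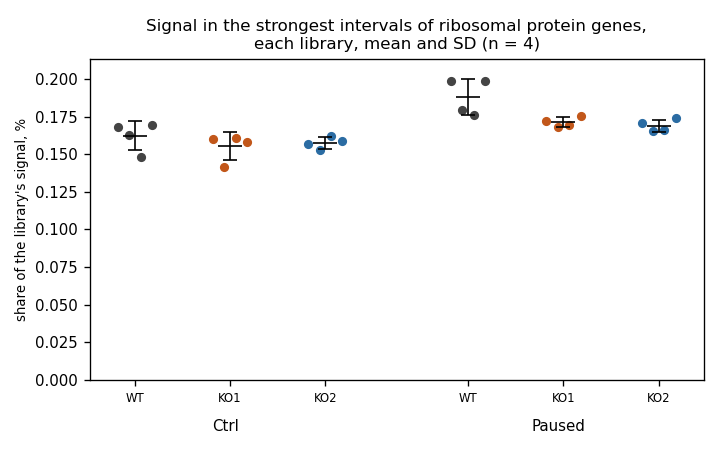
Share of each library's signal (y axis, %) in the strongest intervals of ribosomal protein genes, by line and treatment, with mean and SD (n = 4). In Paused the WT libraries lie from 0.176% to 0.199% and the knockout libraries from 0.165% to 0.175%.

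The share of a library's whole signal that fell in the strongest intervals was 0.162% ± 0.010 (SD, n = 4) in WT in Ctrl, 0.155% ± 0.009 in Smad2_KO1 and 0.158% ± 0.004 in Smad2_KO2. In Paused it was 0.188% ± 0.012 in WT, 0.171% ± 0.003 in Smad2_KO1 and 0.169% ± 0.004 in Smad2_KO2. The WT libraries in Paused held 0.198%, 0.179%, 0.176% and 0.199%, so replicates 1 and 4 were above replicates 2 and 3, and each knockout library was below every WT library. Among the strongest intervals of all genes, the ribosomal protein genes held 0.643% of the signal in WT, 0.630% in Smad2_KO1 and 0.624% in Smad2_KO2. No test over the genes was made.

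Pausing in wild type was described at intervals matched one to one across the tables, with at least 50% of each covered by the other. The tables hold different intervals and were normalized separately, so differences are given relative to the median of all 215826 matched intervals and carry no test. At the 72 genes whose strongest interval in Ctrl had a match, the median difference in WT was 0.19 (log2), near the 0.18 of the strongest intervals of all protein-coding genes and the 0.20 of mitochondrial ribosomal proteins. With all libraries set to the same sum over the matched intervals, the median at the 72 genes was 0.10. Of the 72, 60 lay above the median of all matched intervals. So did 13609 of 16968 strongest matched intervals of all protein-coding genes and 67 of 78 of mitochondrial ribosomal proteins. Libraries were compared with the Paused values lowered by the median difference of all matched intervals (0.085 log2 in WT). In 8 genes all WT libraries were then higher in Paused than in Ctrl (11.1%), against 9.69% of all matched intervals and 18.8% of the strongest matched intervals of all genes. In 3 genes (4.17%) all were lower, against 7.9% of all matched intervals and 3.31% of the strongest matched intervals of all genes. The 4 Paused libraries of WT gave medians of 0.32, 0.08, 0.02 and 0.31 for replicates 1 to 4, so the size varies widely between libraries. In the knockouts the median was 0.05 in Smad2_KO1 and -0.01 in Smad2_KO2, where all genes had 0.09 and 0.07.

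Among the largest rises in WT were Rps27rt (0.96, from 6.69 to 14.8 at a matched interval that in Paused lies beyond the 2 kb), Rpl7a (0.52), Rps27 (0.47) and Rps16 (0.39). Rps27 is a zinc finger protein of the small subunit. Its interval read 256, 219, 206 and 223 in WT in Ctrl and 341, 313, 320 and 352 in Paused, with no overlap. Rpl7a, of the large subunit, read 218, 183, 129 and 187 in Ctrl and 339, 236, 207 and 306 in Paused, which overlap. Rplp0 was one of the 8 genes without overlap, at 0.24, and so were Rpl36, Rpl3l, Rpl7, Rps15a and Rps27l. Rps6 had 0.18, Rps3 0.24, Rpl5 0.28 and Rpl11 0.28, and their libraries overlapped.

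The largest falls were at Rpl32l (-0.81, from 17.9 to 10.4), Rpl19 (-0.55), Rpl38 (-0.29), Rpl3 (-0.27) and Rpl22 (-0.07). With the Paused values lowered as above, all 4 WT libraries at Rpl3 were lower in Paused, and the same held at Rpl19 and Rpl32l. At Rpl3 the difference was -0.19 in Smad2_KO1 and -0.12 in Smad2_KO2. Rpl38, known for a role in the translation of Hox mRNAs, had its strongest interval 1790 bases before the gene body, at a WT mean of 28.6 in Ctrl. Rpl39l had 0.01 in WT and 0.13 and 0.16 in the knockouts.

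**Figure D5:**
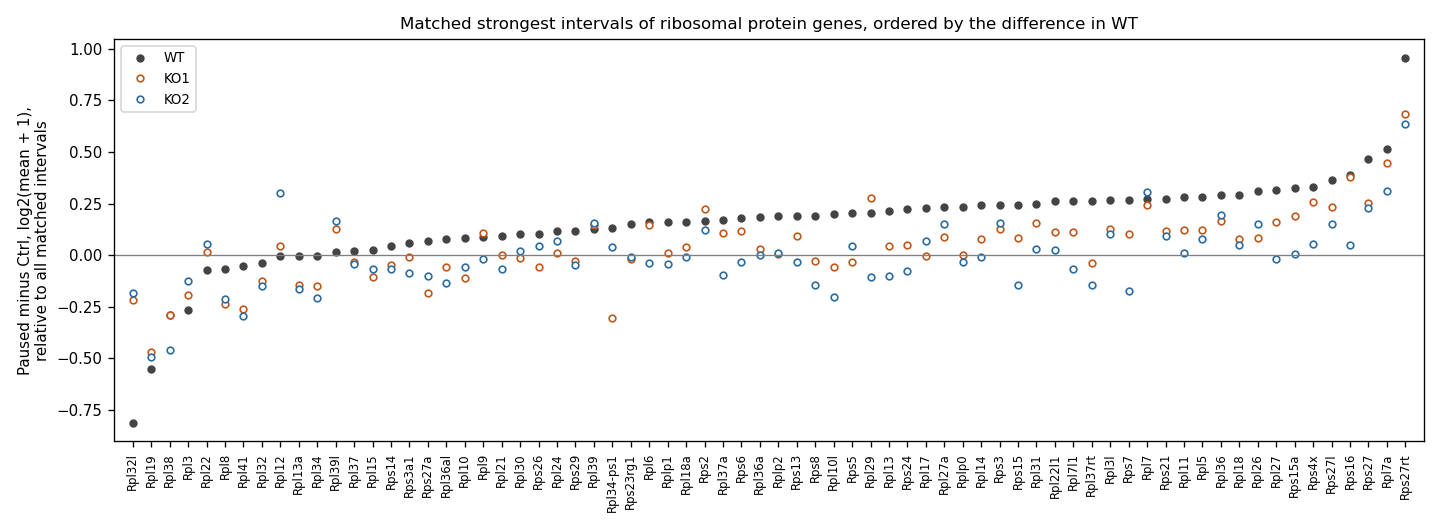
Difference between Paused and Ctrl in log2(mean + 1), relative to the median of all matched intervals (y axis), at matched strongest intervals (x axis, ordered by WT), for WT (filled) and both knockouts (open), without genes not reported here. Most WT points lie above 0, and the medians over all 72 genes are 0.19 in WT and 0.05 and -0.01 in the knockouts.

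At 11 of the 86 genes the strongest interval in Paused overlapped no interval of the Ctrl table, among them Rpl10a, Rpl35, Rpl35a, Rps9, Rps10, Rps12, Rps18, Rps19, Rps20 and Rpsa. That is 12.8% of these genes, against 4.13% of all protein-coding genes and 0 of 78 mitochondrial ribosomal proteins. All 11 are canonical proteins. Many of these intervals were strong. The interval at the start of Rps19 read 629, 502, 521 and 540 in WT in Paused, while the strongest Rps19 interval in Ctrl, inside the gene, averaged 20.9. At Rpsa, a small subunit protein also known as the laminin receptor, the start averaged 353 in WT in Paused and the strongest interval in Ctrl 43.9. Like pairs stood at Rpl10a (284 against 38.7), Rps9 (309 against 70.3) and Rps10 (310 against 91.4). These pairs of values come from different sites and show no change with pausing, and Ctrl coverage at the starts was not analysed here. In the other direction, 9 of 85 strongest intervals in Ctrl overlapped none in Paused (10.6%), against 4.92% of all genes. Within the highest 10% of level this was 2 of 70 (2.86%), against 2.09% of all genes, while for the Paused intervals it was 8 of 76 (10.5%), against 2.22%. Of the 11, the knockout comparison in Paused called Rpsa and Rps18 lower. The Rpsa call was lost with each knockout fitted with WT alone, and without WT replicates 1 or 4, Smad2_KO1 replicates 2 or 3, Smad2_KO2 replicates 1 or 3, or both libraries numbered 2.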

How the data were processed

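ATAC-seq libraries of 3 lines and 2 treatments were analysed, 4 per group. Per the submitters' processing notes, FastQC, Trim Galore, Bowtie2 2.4.1, MACS3 3.0.3 and DiffBind 3.16.0 were used with build mm10; their order, and how reads were shifted for Tn5, are not given in the sources used here. The values the authors deposited are normalized coverage signal per interval, rounded, in a separate table for each treatment. The deposited log2 fold changes and p-values of knockout against WT are used only where the authors' deposited table is named. In every column at least 99.979% of values were whole multiples of 1 read's worth (within 0.011), which gave whole reads and depth; edgeR 4.0.16 on those reads called 21977 intervals in Ctrl and 37848 in Paused in both knockouts.

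Intervals with a value of at least 10 in at least 4 libraries were tested on log2(value + 1) with limma 3.58.1, line as the only factor, and Benjamini-Hochberg adjustment over all intervals of a table. All 85 and 86 strongest intervals passed this filter. Genes were named by fixed roles, by calls in both knockouts (up to 8 per direction), by the 3 highest and lowest levels, by the 5 largest rises and falls with pausing, and by the 3 largest called changes at other intervals. The genes and lists were chosen with earlier results of these data known. Alternatives were another scaling, filter, pseudocount (0.1), flank, replicate block, tool (DESeq2 1.42.0) and leaving out libraries. The test was also run on simulated data. Some genes are counted in totals but are not reported here by name.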

Additional observations from a re-analysis of the deposited data

Results flagged for a closer look

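Single libraries that stood far from the other 3 of their group were searched for in 96 groups of 4, over the called genes, Rps6 and the share of signal. Chance alone would give about 1 such group in 20, or 4.8, and 4 were found, all in Ctrl. Rpl14 read 155 in Smad2_KO1 replicate 2, where the other libraries of that group read from 256 to 262. Rpl8 read 311 in Smad2_KO1 replicate 3, against 280 to 284 in the others. Rps26 read 270 in Smad2_KO2 replicate 4, against 248 to 251 in the others. The share of signal in the strongest intervals was 0.142% in Smad2_KO1 replicate 2, against 0.158% to 0.161% in the others of its group. No gene had all knockout libraries above WT under one treatment and below under the other.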

How the results depend on the processing

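None of the 31 called intervals named reversed its difference in the alternatives run. For named intervals not called, a change of sign was recorded only where an alternative called them, and none was. Without both knockout libraries numbered 2, lower calls no longer prevailed in Paused. The strongest intervals went from 3 higher and 19 lower to 3 and 2, and all intervals from 7 and 26 to 4 and 3. The median differences hardly moved, from -0.193 to -0.188 at the strongest intervals and from -0.149 to -0.150 at all intervals of these genes. In Ctrl, the 7 called intervals became 11 with DESeq2's size factors, 16 with knockout libraries of the same number averaged, 13 with edgeR, 2 with gene bodies not extended and 27 with 10 kb, and 3 to 8 with 1 library left out. With averaging a call needed only 1 comparison with WT, and calls over all Ctrl intervals went from 20159 to 36791. Lower calls over all Ctrl intervals went from 9027 to 13390 with the size factors and 14652 with edgeR. The 4 called strongest intervals became 8 with edgeR, 1 at gene ends only, 2 at canonical genes, 2 without both knockout libraries numbered 2, and 2 to 4 with 1 library left out. In Paused, the 33 called intervals became 66 with the size factors, 61 with TMM factors, 66 with edgeR, 50 with DESeq2, 12 with gene bodies not extended, 63 with 10 kb, 7 without both libraries numbered 2, and 12 to 48 with 1 library left out. The 22 called strongest intervals became 48, 43, 48 and 39 with the size factors, TMM, edgeR and DESeq2, 5 without both libraries numbered 2, and 8 to 34 with 1 library left out. Lower calls over all Paused intervals went from 12816 to 22546, 21121, 23509 and 16949 with those scalings and tools, in the same order. The median pausing difference in WT of 0.19 was 0.12 to 0.24 with 1 library left out and 0.10 with all libraries at the same sum. The alternatives without the libraries numbered 2, at gene ends and at canonical genes were chosen after seeing the data.

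The labels do not say that a replicate number marks a shared culture or day, and not every same-numbered pair had correlated deviations. In Paused, the correlation between the knockouts averaged 0.105 (0.034 to 0.187) for the same number and -0.0351 for other numbers, and between WT and a knockout 0.0261 for the same number. In Ctrl the values were 0.0513, -0.0171 and 0.0144. With a replicate block, the counts were 7 and 4 in Ctrl and 45 and 32 in Paused, and the pausing difference was 0.16.

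Of 31 called intervals named, 7 kept their call in every one of the 23 alternatives: Rpl39l at its start in both treatments, a second Rpl39l interval, Rpl3 in Ctrl, and Rpl32l, Rpl8 and Rps23rg1 in Paused. The second Rpl39l interval and that of Rpl32l passed the filter only with the knockout libraries, where they were higher. Of 70 not called, 16 were called in at least 1.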
